A study of Mus musculus with 16 samples.

Results

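The genes described here are 9 genes of the podocyte, the cell that covers the outside of the kidney's filtering capillaries: Nphs1, Podxl, Wt1, Synpo, Ptpro, Magi2, Plce1, Tcf21 and Robo2. They were taken as a list of symbols, not by a cut on a measured value, but the list was chosen with earlier results of these data known. They were 9 of the 55359 genes in the count tables. All 9 passed the filter on low counts in kidney, and 8 passed it in ovary, where Nphs1 did not. Gene expression was measured by bulk RNA sequencing of polyA RNA from whole organs of wild-type CBAF1 female mice aged 21 days, with 4 libraries in each of 4 groups. Mice of the PT-2385 groups were injected intraperitoneally every 12 h for 4 days with 7.5 mg/kg of PT-2385, a small molecule that binds HIF-2 alpha, the protein made from Epas1, and blocks its pairing with ARNT. Vehicle mice received 5% DMSO in saline on the same schedule. All groups, vehicle included, were also given 5 IU of PMSG for 48 h and then 5 IU of hCG, hormones that stimulate follicle growth and ovulation, and kidney and ovary were taken 13 h after hCG. The labels do not say that libraries of a group came from separate mice, so each p-value measures the spread between these libraries, which may in part be technical.

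Podocytes wrap the glomerular capillaries with interlocking foot processes. The gaps between the processes are bridged by the slit diaphragm, whose core protein, nephrin, is made from Nphs1. Foot processes hold their shape through actin, and a small set of transcription factors, Wt1 and Tcf21 among them, keeps the podocyte programme running. HIF-2 alpha is known in kidney mainly from interstitial cells, where it drives erythropoietin, and from endothelial cells. Several of the 9 genes also work outside the podocyte: Wt1 is known in granulosa cells and the ovarian surface epithelium, Podxl in vascular endothelium, and Tcf21 in stromal cells. In a whole organ, fewer podocytes and less RNA per podocyte cannot be told apart.

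The libraries held between 12689770 and 43295974 assigned read pairs in PT-2385 kidneys and between 23285083 and 26951128 in vehicle kidneys. In ovary they held 17245769 to 31968066 with PT-2385 and 29514555 to 33577065 with vehicle. Kidney PT-2385 replicate 3 was the deepest library, and its flow-cell code differs from the one that all other libraries carry. Mitochondrial transcripts took 11.74% to 12.58% of counts in PT-2385 kidneys and 10.1% to 11.67% in vehicle kidneys, so the groups did not overlap. The granulosa genes Foxl2, Fshr and Cyp19a1 and the zona gene Zp3 had 0 counts in every kidney library. Other genes of the same granulosa and oocyte lists did have counts in kidney. Among them, Inha averaged 4.64 CPM with PT-2385 and 4.32 CPM with vehicle, and Bmp15 averaged 2.2 CPM in both groups. Epas1 itself, whose protein is the drug's target, averaged 197 ± 8.14 CPM (counts scaled to the same total per library, 1e+06, after TMM correction) in PT-2385 kidneys and 195 ± 9.05 CPM in vehicle kidneys (SD, n = 4 each; Benjamini-Hochberg adjusted p = 0.893, quasi-likelihood test of edgeR). A blocked protein need not change its own mRNA, so this value does not show whether the drug acted.

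RefSeq promoter windows ran from 250 bases before to 50 bases after a transcription start. None was found for Wt1 or Podxl in the source used, and Synpo was left out of this step. The 9 windows searched belong to 6 of the 9 genes (Magi2, Ptpro, Nphs1, Tcf21, Robo2 and Plce1). Those of Nphs1 and Tcf21 are shown, the one because WT1 protein is known to activate nephrin and Wt1 passed the test in kidney, the other because its window holds 1 copy of the core letters that HIF proteins recognise. Both are given 5′ to 3′ on the gene's strand in build GRCm38.p6, Nphs1 at chr7:30459808-30460107 (plus strand) and Tcf21 at chr10:22820094-22820393 (minus strand). Capitals mark a match to a WT1-type core, GTGGGNG, in Nphs1 and to a HIF core, GCGTG, in Tcf21.
Nphs1: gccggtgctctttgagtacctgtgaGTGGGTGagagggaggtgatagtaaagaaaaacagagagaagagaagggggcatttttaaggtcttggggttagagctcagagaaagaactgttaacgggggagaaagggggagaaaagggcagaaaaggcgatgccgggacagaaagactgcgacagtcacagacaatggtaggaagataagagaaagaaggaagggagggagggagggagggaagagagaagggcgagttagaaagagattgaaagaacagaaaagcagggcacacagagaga
Tcf21: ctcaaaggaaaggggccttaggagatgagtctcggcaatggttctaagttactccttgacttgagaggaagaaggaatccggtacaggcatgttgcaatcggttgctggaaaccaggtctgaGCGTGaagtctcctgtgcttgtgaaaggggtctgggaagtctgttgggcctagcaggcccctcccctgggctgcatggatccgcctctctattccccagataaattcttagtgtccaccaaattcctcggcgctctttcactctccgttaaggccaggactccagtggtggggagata
On either strand, the HIF core (ACGTG or GCGTG) was found in 3 of the 9 windows, 1 each of Magi2, Tcf21 and Robo2, and in 43.8% of all 32841 promoter windows of the same length. The WT1-type core was found in 4 of the 9 windows, 1 each of Magi2, Ptpro, Nphs1 and Robo2, and in 31.6% of all windows. A letter match describes the sequence and is not a binding site.

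In kidney, transcripts of Wt1 and Synpo were higher after PT-2385 than after vehicle, and the fitted differences of all 9 podocyte genes were positive. The 2 genes that passed the test rose by similar amounts: Wt1, a zinc-finger transcription factor, was 20.4% higher, and Synpo, which makes the actin-associated foot process protein synaptopodin, was 21.7% higher. None of these 9 genes fell. The other 7 genes had log2 fold changes between 0.08 and 0.22 and did not pass the test. The call was an adjusted p under 0.05 over all 17763 genes tested in kidney, of which 5.53% passed in either direction and 1.83% were higher with PT-2385. The median log2 fold change was 0.17 over the 9 genes and 0.0066 over all tested genes. Without vehicle replicate 1 the median of the 9 was 0.11, with Podxl at 0.11 and Ptpro at 0.09. Robo2 was at 0.03 without vehicle replicate 3, 0.04 without PT-2385 replicate 3 and 0.14 without PT-2385 replicate 1, and Tcf21 at 0.04 without PT-2385 replicate 4. A positive fitted difference was found for 51.5% of all tested genes.

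**Figure D1:**
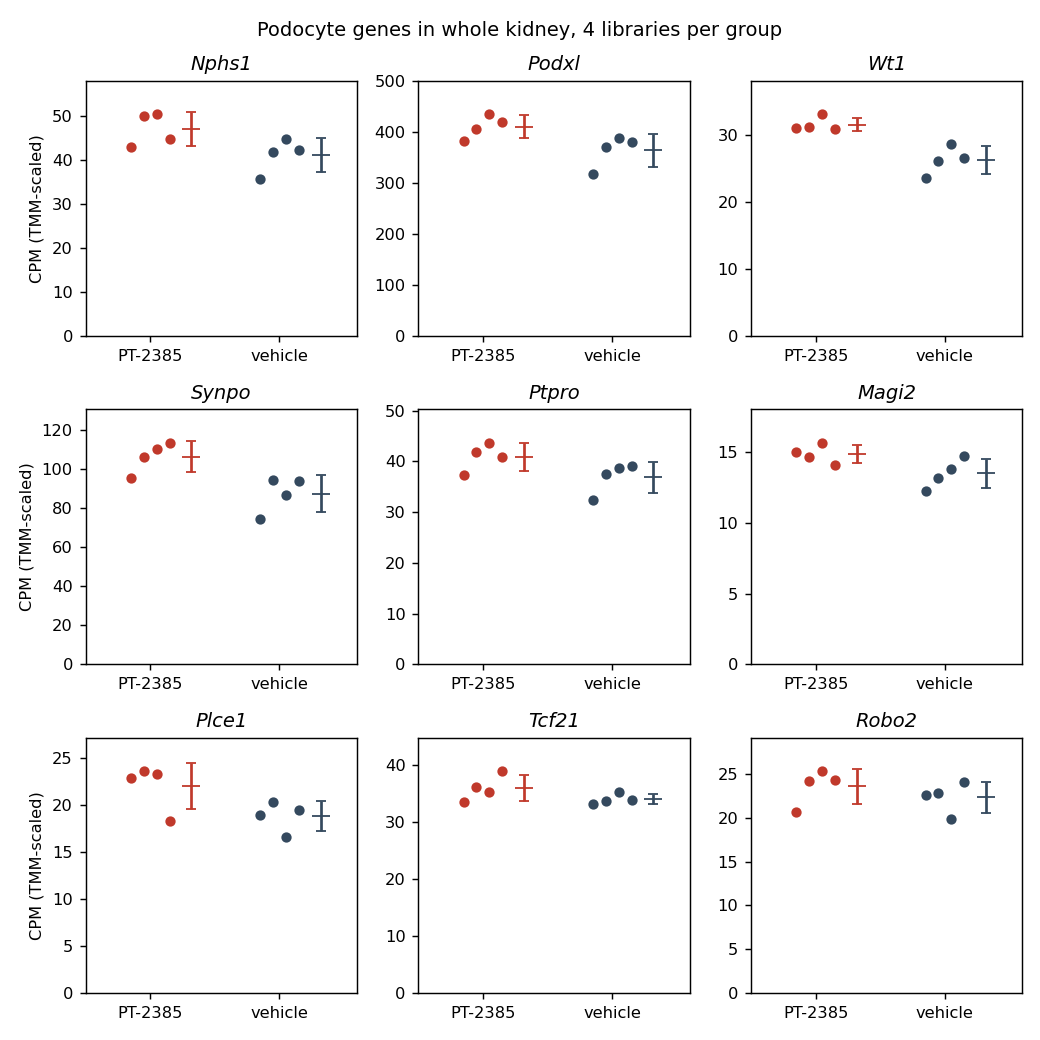
Level of each podocyte gene in whole kidney, in CPM after TMM scaling (vertical axes from 0), for 4 PT-2385 libraries (left, red) and 4 vehicle libraries (right, dark blue); the bars are the mean and SD. The PT-2385 libraries lie wholly above the vehicle libraries for Wt1 (31.0 to 33.1 against 23.7 to 28.7 CPM) and Synpo (95.5 to 114 against 74.8 to 94.8 CPM), and the groups overlap for the other 7 genes.

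Wt1 and Tcf21 act upstream of the structural genes in the podocyte. Wt1 (ENSMUSG00000016458; chromosome 2, bases 104956874 to 105003961 of GRCm39, plus strand) had 31.1, 31.2, 33.1 and 31.0 CPM in the 4 PT-2385 kidneys and 23.7, 26.1, 28.7 and 26.7 CPM in the 4 vehicle kidneys. The groups did not overlap, with a mean of 31.6 ± 1.02 CPM after PT-2385 and 26.3 ± 2.09 CPM after vehicle (SD, n = 4 each), and the PT-2385 libraries were the more tightly grouped. The log2 fold change was 0.27 (SE 0.0638, 95% interval 0.13 to 0.40), with an adjusted p of 0.0250 in edgeR's quasi-likelihood test. Groups that did not overlap with PT-2385 higher were found for 5.37% of all tested genes. The antisense gene Wt1os abuts Wt1 without sharing exon bases, and at 1.40 CPM in PT-2385 kidneys and 1.67 CPM in vehicle kidneys it was far below Wt1. The call was lost without kidney vehicle replicate 2 (adjusted p = 0.0729), without PT-2385 replicate 3 (0.105) and without PT-2385 replicate 4 (0.0633), each from edgeR's quasi-likelihood test. It was also lost when all 16 libraries shared one fit (0.129).

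Tcf21, a basic helix-loop-helix factor needed for glomerulus formation in mice, had 33.6, 36.3, 35.2 and 39.0 CPM in PT-2385 kidneys and 33.3, 33.7, 35.4 and 34.0 CPM in vehicle kidneys. The groups overlapped, and only PT-2385 replicates 2 and 4 stood above every vehicle library. Its log2 fold change of 0.08 had a 95% interval of -0.04 to 0.20 and an adjusted p of 0.435 by edgeR's quasi-likelihood test. Whether the responses of Tcf21 and Wt1 differed from each other was not tested.

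Synpo was the structural gene that passed. The PT-2385 kidneys had 95.5, 107, 110 and 114 CPM, and the vehicle kidneys had 74.8, 94.8, 86.9 and 94.1 CPM. The lowest PT-2385 library, replicate 1, lay just above the highest vehicle library, replicate 2, so the groups separated by a narrow margin. The means were 107 ± 7.92 CPM after PT-2385 and 87.6 ± 9.28 CPM after vehicle (SD, n = 4 each), a log2 fold change of 0.28 (SE 0.0735, 95% interval 0.13 to 0.44; adjusted p = 0.0392, edgeR quasi-likelihood test). Leaving out kidney vehicle replicate 3 (adjusted p = 0.0623) or PT-2385 replicate 2 (0.0656), 3 (0.127) or 4 (0.123) ended the call in the same edgeR test. Upper-quartile scaling (0.0517) and one fit over all 16 libraries (0.147) ended it too. Leaving out vehicle replicate 1, the lowest library for Synpo, kept the call but lowered the log2 fold change to 0.21.

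Of the slit diaphragm genes, Nphs1 had 42.9, 50.1, 50.4 and 44.7 CPM in PT-2385 kidneys and 35.7, 41.7, 44.8 and 42.3 CPM in vehicle kidneys. PT-2385 replicates 2 and 3 stood above all vehicle libraries, while replicates 1 and 4 fell within the vehicle range. The log2 fold change was 0.19 (SE 0.0722, 95% interval 0.04 to 0.35; adjusted p = 0.122, edgeR quasi-likelihood test). Nphs1 shares 12.4% of its exon bases with the antisense gene Nphs1os, which averaged 0.119 CPM in PT-2385 kidneys and 0.0958 CPM in vehicle kidneys. Magi2, a scaffold protein that binds nephrin, ranged from 14.1 to 15.6 CPM in PT-2385 kidneys and from 12.2 to 14.7 CPM in vehicle kidneys. Its log2 fold change of 0.14 had an adjusted p of 0.280 in edgeR's quasi-likelihood test, and its groups overlapped. Robo2, a Slit receptor that in mouse podocytes joins nephrin through the adaptor Nck, spanned 20.7 to 25.3 CPM with PT-2385 and 19.9 to 24.1 CPM with vehicle (log2 fold change 0.08; adjusted p = 0.565, edgeR quasi-likelihood test).

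Podxl encodes podocalyxin, the negatively charged sialomucin of the podocyte's free surface, and was the most abundant of the 9 genes. PT-2385 kidneys had 383, 406, 435 and 420 CPM, and vehicle kidneys had 318, 370, 390 and 381 CPM. PT-2385 replicate 1 fell inside the vehicle range and the other 3 PT-2385 libraries stood above it. The log2 fold change was 0.17 (SE 0.0619, 95% interval 0.04 to 0.30; adjusted p = 0.106, edgeR quasi-likelihood test). Ptpro, a receptor tyrosine phosphatase of the same surface, had 37.2, 41.8, 43.7 and 40.9 CPM in PT-2385 kidneys and 32.3, 37.5, 38.6 and 39.0 CPM in vehicle kidneys. Here again replicate 1 was the PT-2385 library within the vehicle range (log2 fold change 0.15; adjusted p = 0.191, edgeR quasi-likelihood test). Plce1 encodes phospholipase C epsilon, a signalling enzyme of the developing glomerulus, and had 22.9, 23.6, 23.3 and 18.4 CPM in PT-2385 kidneys. The vehicle kidneys had 19.0, 20.4, 16.7 and 19.5 CPM for Plce1. Its PT-2385 replicate 4 lay well below the other 3, which all exceeded the vehicle range (log2 fold change 0.22, 95% interval 0.04 to 0.40; adjusted p = 0.140, edgeR quasi-likelihood test).

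At an unadjusted p under 0.05, 6 of the 9 genes were higher with PT-2385, where 10.7% of all tested genes were. The 9 genes together took 681 to 772 CPM in PT-2385 kidneys and 571 to 675 CPM in vehicle kidneys. This sum is mostly Podxl, and the 2 groups lay close at their nearest libraries. Read library by library, most of the genes shared their extremes. Vehicle replicate 1 held the lowest value of 7 of the 9 genes and was above the gene's own mean for 0 of 9. PT-2385 replicate 3 held the highest value of 6 genes, and PT-2385 replicates 2 and 3 were above the mean for all 9. Averaged over the 9 genes, log2 CPM relative to each gene's mean was 0.0054, 0.11, 0.16 and 0.07 in PT-2385 replicates 1 to 4. In vehicle replicates 1 to 4 it was -0.21, -0.06, -0.07 and -0.02. Every PT-2385 library was above every vehicle library on this average, though PT-2385 replicate 1 was close to vehicle replicate 4. The 9 values of a library come from the same RNA and are not independent. The mitochondrial share of counts was also lowest in vehicle replicate 1 (10.1%) and highest in PT-2385 replicate 3 (12.58%), and its part in these values was not tested.

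**Figure D2:**
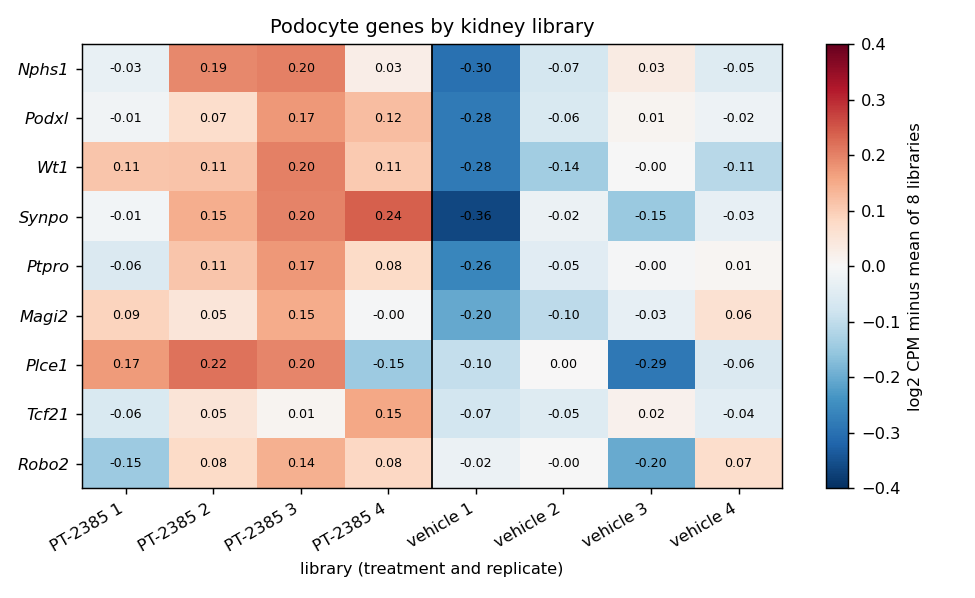
Each cell is a gene's log2 CPM in one kidney library minus the gene's mean over the 8 kidney libraries (red above, blue below), with PT-2385 libraries left of the line and vehicle libraries right of it. Vehicle replicate 1 is lowest in 7 genes, PT-2385 replicate 3 is above the mean in all 9 and Plce1 and Robo2 are lowest in vehicle replicate 3.

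The members differed in how closely they kept to this shared order of libraries. Nphs1, Podxl, Wt1, Synpo, Ptpro and Magi2 all had their lowest value in vehicle replicate 1. Tcf21 also had its lowest there, at -0.07 relative to its mean on the log2 scale, where Synpo was at -0.36. Plce1 and Robo2 had theirs in vehicle replicate 3. Among 13626 other kidney genes with a mean of at least 2 CPM, the 6 whose log2 CPM over the 8 libraries was most like the average of the 9 were Ccdc17, Megf11, Tdrd5, Tuba1a, Cttnbp2 and Shisa3, with Pearson correlations between 0.968 and 0.986. Without the 2 libraries farthest from the median, vehicle replicate 1 and PT-2385 replicate 3, these correlations ran from 0.885 to 0.990. Of the 6 genes, Cttnbp2 passed the test between treatments (log2 fold change 0.25; adjusted p = 0.0443, edgeR quasi-likelihood test), and Shisa3 missed it narrowly (0.27; adjusted p = 0.0511). These genes were chosen for following an average that itself separates the groups, and the Cttnbp2 call was lost under 8 of the 16 alternatives, among them one fit over all libraries (adjusted p = 0.394, edgeR) and leaving out any library but vehicle replicate 3. All of these points share their libraries and scaling, and the correlations are descriptions over 8 libraries.

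Markers of other kidney cells went both ways, and the summed levels of the 2 groups overlapped in every list given here except the macrophage one. All 8 glomerular endothelial genes had positive fitted differences in kidney, beside 51.5% of all tested genes. Plat, the plasminogen activator of glomerular endothelium, passed the test (log2 fold change 0.32, adjusted p = 0.0194, edgeR quasi-likelihood test). The summed level of the 8 genes was 569 to 626 CPM in PT-2385 kidneys and 503 to 570 CPM in vehicle kidneys. Mesangial and renin cell genes summed to 536 to 573 CPM with PT-2385 and 505 to 538 CPM with vehicle, and 0 of 6 passed edgeR's test (0 at an unadjusted p under 0.05). Collecting duct genes had positive differences in 5 of 5, beside the same 51.5% of all tested genes. They summed to 535 to 606 CPM with PT-2385 and 463 to 607 CPM with vehicle. Thick limb and distal tubule genes summed to 4657 to 5293 CPM with PT-2385 and 4997 to 5551 CPM with vehicle. Yet 3 of these 5 genes had positive differences, and Pvalb was higher (0.30; adjusted p = 0.0342, edgeR quasi-likelihood test). The 4 parietal epithelial genes summed to 204 to 224 CPM after PT-2385 and 200 to 220 CPM after vehicle. The 8 proximal tubule genes summed to 19901 to 21988 CPM after PT-2385 and 21163 to 23748 CPM after vehicle, and Cubn, the cubilin receptor gene, was lower (-0.44; adjusted p = 0.0288, edgeR quasi-likelihood test). Macrophage genes summed to 82.4 to 96.0 CPM with PT-2385 and 102 to 108 CPM with vehicle, with Csf1r, which shares 17.9% of its exon bases with Hmgxb3, lower (-0.27; adjusted p = 0.0251, edgeR quasi-likelihood test). This sum is mostly Csf1r, which averaged 62.2 CPM with PT-2385 and 75.1 CPM with vehicle. No other macrophage gene of the 5 passed, and Cx3cr1 had a positive difference (0.06). Plat, Pvalb, Cubn and Csf1r were picked out after their values were seen. Whether the share of glomeruli, cortex or other cells in the tissue pieces had a part in the podocyte values was not tested.

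Beyond the 9 genes, 69 other genes of the podocyte and its surroundings were listed, of which 67 passed the filter in kidney. With PT-2385, 6 rose and 4 fell in edgeR's quasi-likelihood test, while 57 did not pass. The 10 called genes were 14.9% of those tested, beside 5.53% of all kidney genes, of which 3.7% were lower. The genes that rose were a mixed group: Ddn, Nes, Slc9a3r2, Foxc2, Cdkn1c and Thsd7a. Those that fell were Pard3, Col4a3, Npnt and Dag1. Which kidney cells the transcripts of either group came from was not tested. Each of these 10 calls was lost under 4 to 11 of the 16 alternative settings, and 0 of the 10 changed direction. Without kidney PT-2385 replicate 3, PT-2385 replicate 4 or vehicle replicate 2, 0 of the 10 kept their call in edgeR's test, and the calls over all kidney genes were 240, 287 and 269 in that order. Leaving out any one of the other 5 kidney libraries kept 4 to 9 of the 10 calls, and in one fit over all 16 libraries 0 did.

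The slit diaphragm and polarity list gave 0 higher and 1 lower of 14 genes tested, with a median log2 fold change of 0.09 beside 0.0066 for all genes. Calls over all tested kidney genes were 1.83% higher and 3.7% lower. Pard3, a polarity scaffold used by most epithelia, fell to 55.6 ± 1.35 CPM in PT-2385 kidneys, against 65.6 ± 4.72 CPM in vehicle kidneys (SD, n = 4 each; adjusted p = 0.0217, edgeR quasi-likelihood test). In the Slit and Robo list, 0 of 8 tested genes passed edgeR's test and 3 had an unadjusted p under 0.05, beside 23.1% of all kidney genes. Robo4, an endothelial receptor, had a log2 fold change of 0.19 (adjusted p = 0.0818, edgeR) and the ligand gene Slit3 one of -0.34 (adjusted p = 0.0962, edgeR).

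Of 15 tested genes of the podocyte actin cytoskeleton, 3 rose and 0 fell, with a median log2 fold change of 0.02. Over all tested kidney genes, 1.83% were called higher and 3.7% lower, and the median was 0.0066. Ddn, which encodes the slit diaphragm protein dendrin, averaged 29.6 ± 1.16 CPM in PT-2385 kidneys and 23.8 ± 3.30 CPM in vehicle kidneys (log2 fold change 0.32; adjusted p = 0.0402, edgeR quasi-likelihood test; SD, n = 4 each). Nes, the intermediate filament gene nestin, had 61.1 ± 3.44 CPM with PT-2385 and 52.7 ± 2.81 CPM with vehicle (0.21; adjusted p = 0.0366, edgeR). Slc9a3r2, an adaptor that ties podocalyxin to actin, had 95.1 ± 5.30 CPM with PT-2385 and 81.9 ± 4.74 CPM with vehicle (0.22; adjusted p = 0.0296, edgeR). Ilk, at 0.319 CPM with PT-2385 and 0.366 CPM with vehicle, was under the filter in kidney and was not tested. It shares 98.7% of its exon bases with the gene models Rrp8 and Taf10.

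Of 8 podocyte transcription factor genes other than Wt1 and Tcf21, 7 had positive differences and 1, Foxc2, passed. Over all tested kidney genes, 51.5% had positive differences and 5.53% passed. Foxc2, a forkhead factor of podocyte development, averaged 13.3 ± 1.40 CPM with PT-2385 and 10.6 ± 0.496 CPM with vehicle (SD, n = 4 each; log2 fold change 0.35; adjusted p = 0.0281, edgeR quasi-likelihood test). The list's median of 0.19 was close to that of the 9 genes. Among 10 other podocyte-enriched genes, 2 rose and 0 fell, with a median of 0.10. Of all tested kidney genes, 1.83% were called higher and 3.7% lower. Cdkn1c, the cell cycle inhibitor p57 of mature podocytes, averaged 28.9 ± 1.28 CPM with PT-2385 and 22.9 ± 2.66 CPM with vehicle (0.34; adjusted p = 0.0176, edgeR). It shares 30.3% of its exon bases with the antisense gene model Gm44732, which makes its counts less certain. Thsd7a, a podocyte membrane protein and an antigen in human membranous nephropathy, had 28.8 ± 1.08 CPM with PT-2385 and 24.5 ± 1.92 CPM with vehicle (0.23; adjusted p = 0.0494, edgeR), and its call was the least stable, lost under 11 of 16 alternatives.

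In the glomerular basement membrane and adhesion list, 0 of 12 genes were higher and 3 were lower, beside 3.7% of all kidney genes. The list as a whole was mixed, with 5 of 12 differences positive and a median log2 fold change of -0.04. Col4a3, a collagen IV chain of glomerular and some tubular basement membranes, averaged 453 ± 24.5 CPM after PT-2385 and 534 ± 51.9 CPM after vehicle (-0.24; adjusted p = 0.0399, edgeR quasi-likelihood test; SD, n = 4 each). Npnt, the integrin ligand nephronectin, had 592 ± 21.8 CPM with PT-2385 and 696 ± 61.4 CPM with vehicle (-0.23; adjusted p = 0.0325, edgeR). Dag1, the dystroglycan gene, had 282 ± 5.18 CPM with PT-2385 and 319 ± 17.8 CPM with vehicle (-0.18; adjusted p = 0.0391, edgeR). By CPM, which is not corrected for exon length, all 3 were higher in whole kidney than Nphs1 or Wt1.

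**Figure D3:**
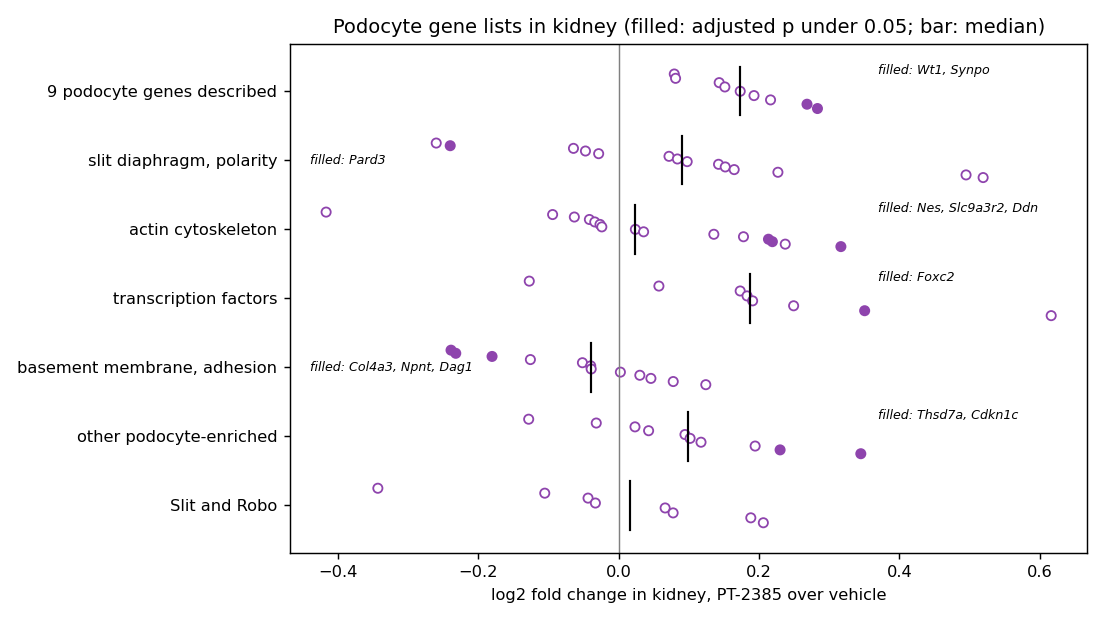
Log2 fold changes in kidney, PT-2385 over vehicle, of the 9 podocyte genes and of 6 lists of related genes; each circle is a tested gene, filled where the adjusted p was under 0.05, and each short bar is a list's median. All 9 podocyte genes lie right of 0, while the basement membrane list holds 3 filled circles left of 0 (Col4a3, Npnt and Dag1).

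In ovary, 8 of the 9 genes were expressed and none passed the test between treatments. Of 18125 ovary genes tested, 0.0497% passed, so few calls of any kind were made there. By edgeR's quasi-likelihood test 0 of 8 podocyte genes passed, with 1 (Ptpro) at an unadjusted p under 0.05 beside 13.2% of all tested genes, and DESeq2 and limma-voom also called 0. Their log2 fold changes were 4 above 0 and 4 below, with a median of 0.02, and 49.2% of all tested genes were above 0.

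Wt1 in ovary had 81.7, 75.1, 81.7 and 92.4 CPM with PT-2385 and 85.1, 72.3, 88.2 and 74.8 CPM with vehicle. The 2 groups covered much the same range (log2 fold change 0.05, 95% interval -0.13 to 0.23; adjusted p = 0.850, edgeR quasi-likelihood test). Synpo, the most abundant of the 9 in ovary, had 313, 352, 350 and 337 CPM with PT-2385 and 342, 291, 390 and 331 CPM with vehicle. All 4 PT-2385 ovaries fell inside the vehicle range (95% interval of the log2 fold change -0.20 to 0.19; adjusted p = 0.994, edgeR). Podxl ranged from 94.4 to 110 CPM with PT-2385 and from 99.3 to 115 CPM with vehicle (log2 fold change -0.06; adjusted p = 0.741, edgeR).

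Ptpro was the ovary gene with the widest difference. It had 4.19, 4.20, 4.16 and 3.51 CPM in PT-2385 ovaries and 2.33, 2.12, 3.70 and 3.12 CPM in vehicle ovaries. Replicates 1 to 3 with PT-2385 stood above every vehicle library, and replicate 4 fell below vehicle replicate 3. The log2 fold change was 0.51 (SE 0.185, 95% interval 0.10 to 0.91; adjusted p = 0.280, edgeR quasi-likelihood test), from 65 to 122 read pairs per library. Without ovary vehicle replicate 3 it was 0.67 with an adjusted p of 0.0406 in the same edgeR test.

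The remaining ovary genes varied more within groups than between them. Robo2 spanned 60.1 to 91.8 CPM with PT-2385 and 65.9 to 91.3 CPM with vehicle (log2 fold change 0.05; adjusted p = 0.921, edgeR). Tcf21 had 30.04 to 38.8 CPM with PT-2385 and 30.5 to 44.5 CPM with vehicle (0.04; adjusted p = 0.916, edgeR). Plce1 (-0.05; adjusted p = 0.868, edgeR) and Magi2 (-0.13; adjusted p = 0.673, edgeR) had negative differences of the same small order. In the 6 related lists, 0 genes passed edgeR's test in ovary, and 0 to 2 genes of a list had an unadjusted p under 0.05.

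Nphs1 was near 0 in ovary. It had 0 counts in all 4 PT-2385 ovaries and 6, 2, 0 and 0 counts in the 4 vehicle ovaries, a mean of 0.0648 ± 0.0915 CPM in vehicle (SD, n = 4; exact two-sided permutation p = 0.429, where the smallest possible is 0.0286). No fold is given for counts this low, and 0 counts allow up to 3 counts in a library. Vehicle replicate 1, with the 6 counts, also had 32.5 CPM of Kap, a proximal tubule gene, while no other ovary library exceeded 0.783 CPM. The 8 proximal tubule genes summed to 13.1 to 14.96 CPM in PT-2385 ovaries and 12.1 to 75.0 CPM in vehicle ovaries, and the part of kidney RNA in the Nphs1 counts was not tested.

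**Figure D4:**
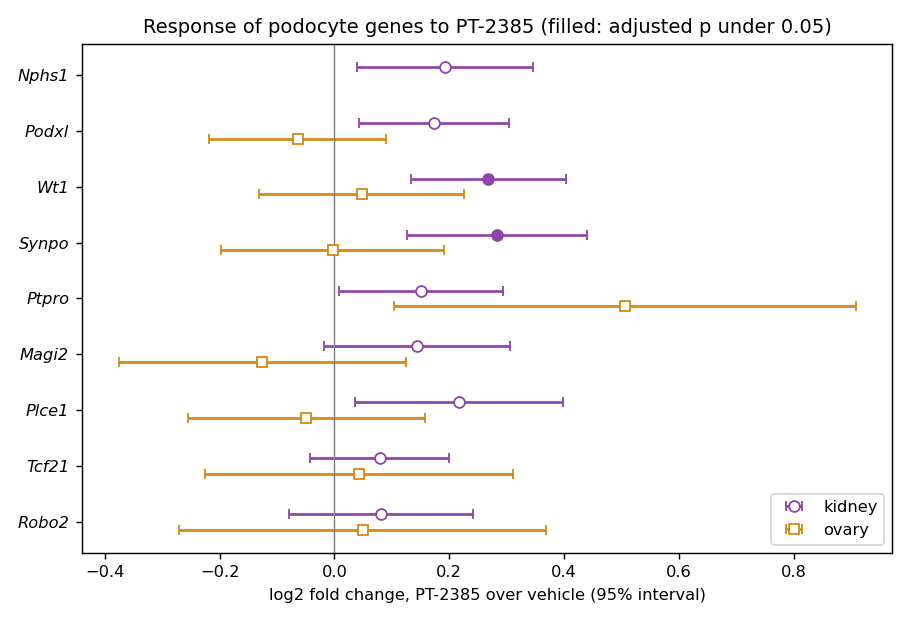
Log2 fold change of each podocyte gene, PT-2385 over vehicle, with its 95% interval, in kidney (circles) and ovary (squares); filled symbols have an adjusted p under 0.05, and Nphs1 has no ovary value. The kidney values run from 0.08 to 0.28 and Wt1 and Synpo are filled, whereas the ovary values lie on both sides of 0 and Ptpro has the widest interval.

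Whether the response differed between organs was tested in one fit over both, as the ovary log2 fold change minus the kidney one. In edgeR's quasi-likelihood test 0 of the 9 genes passed, beside 0.19% of all 19977 genes tested. An unadjusted p under 0.05 was found for 2 of the 9, Synpo and Nphs1, beside 12% of all tested genes. DESeq2 and limma-voom also called 0. The difference was -0.20 for Wt1 (95% interval -0.43 to 0.03; adjusted p = 0.481, edgeR) and -0.27 for Synpo (95% interval -0.53 to -0.01; adjusted p = 0.407, edgeR). The rise of Wt1 and Synpo in kidney was therefore not shown to differ from the response in ovary. For Ptpro the difference was 0.37 (95% interval -0.0019 to 0.73, adjusted p = 0.419, edgeR). The differences of Tcf21 and Robo2 were within 0.02 of 0, but with wide 95% intervals (-0.32 to 0.29 and -0.41 to 0.38). Nphs1 was in this fit, but with almost no ovary counts its difference has no useful size.

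Levels compared between genes need a correction for exon length, so they are given here in TPM, which divides counts by exon length and scales each library to the same total, as a mean with the lowest and highest of the 8 libraries of an organ. In kidney, Podxl led at 155 TPM (133 to 173). Next came Tcf21 at 32.1 TPM (30.3 to 35.6), Synpo at 26.1 TPM (21.0 to 30.4), Nphs1 at 19.7 TPM (16.6 to 22.4), Wt1 at 18.5 TPM (15.8 to 21.1) and Ptpro at 15.7 TPM (13.7 to 17.6), where each neighbouring pair overlapped. A gap separated them from Robo2 at 5.55 TPM (4.66 to 6.08), Plce1 at 4.41 TPM (3.48 to 5.08) and Magi2 at 3.88 TPM (3.5 to 4.27). Plce1 overlapped both of these neighbours, while Robo2 and Magi2 did not overlap. Ranges of Podxl and Tcf21 did not touch, nor did those of Ptpro and Robo2.

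In ovary the order was another one. Synpo led at 111 TPM (95.6 to 129), above Wt1 at 63.6 TPM (56.6 to 72.0), and Wt1 lay just above Podxl at 50.8 TPM (45.0 to 56.2). Tcf21 at 40.2 TPM (33.1 to 50.3) overlapped Podxl. Robo2 followed at 22.3 TPM (17.7 to 27.2), then Plce1 at 6.90 TPM (6.001 to 7.93), Magi2 at 3.22 TPM (2.79 to 3.99) and Ptpro at 1.68 TPM (1.05 to 2.09), none of which overlapped its neighbours. Nphs1 was last at 0.0183 TPM (0 to 0.111). Kidney and ovary levels were not tested against each other, because the RNA was isolated by different methods.

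**Figure D5:**
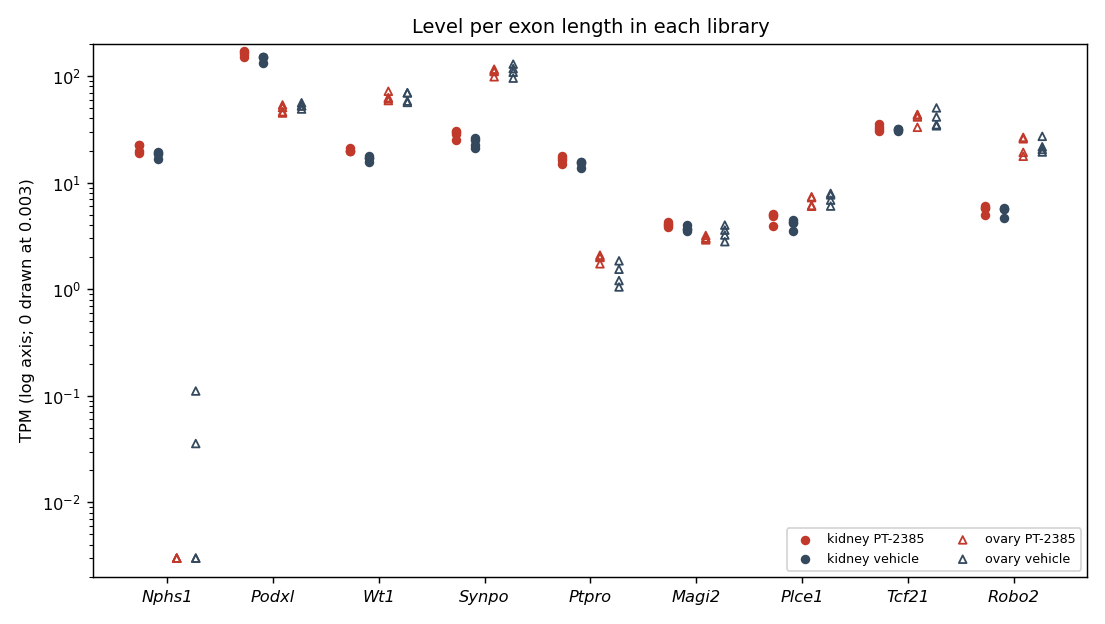
Level of each podocyte gene in TPM (log axis, with 0 drawn at the bottom) in every library, for kidney (filled circles) and ovary (open triangles), PT-2385 in red and vehicle in dark blue. Podxl is the highest in kidney (133 to 173 TPM), Synpo in ovary (95.6 to 129 TPM), and Nphs1 is at 16.6 to 22.4 TPM in kidney but at most 0.111 TPM in ovary.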

How the data were processed

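The analysis used 16 bulk libraries, 4 per group, from whole kidney and whole ovary. The deposited values are raw counts of read pairs per gene, made with featureCounts 2.0.6 over the exons of GENCODE vM27 (basic), per the file headers. The command recorded there sets no strandedness, so reads of overlapping antisense genes could not be separated. The exon length per gene is the authors' deposited value in bases, an other unit, and was used for TPM. Per the submitters' processing notes, FastQC and STAR were used with build GRCm39; versions are not given in the sources used here. Libraries were made from stranded polyA RNA, isolated with a column kit for ovary and Trizol for kidney, per the labels' protocols.

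Identifiers were matched to symbols through GENCODE M21, which named 94.1% of them. Each organ was fitted alone in edgeR 4.0.16 (R 4.3.3): genes were filtered (filterByExpr, minimum count 10, minimum total 15), scaled by TMM and tested with the robust quasi-likelihood test, PT-2385 over vehicle, with Benjamini-Hochberg adjustment over all tested genes at 0.05. One fit over all 16 libraries, with a mean for each of the 4 groups, tested the difference of the responses. CPM was taken after TMM scaling within an organ, and logs used a prior count of 2. Alternatives were other scaling, DESeq2 1.42.0, limma-voom 3.58.1, other filters, the replicate number as a block, all libraries in one fit and leaving out each library. The scripts were tested on simulated data. In each organ, libraries numbered 2 and 3 were most like the library of their own number in the other group, but those numbered 1 and 4 were not. The numbers were therefore not treated as pairs.

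The members and lists were chosen with earlier results of these data known. Named genes were the 9 members, up to 4 called genes of each list or else the 2 with the smallest p, and the 6 genes most like the members. Promoter sequences came from RefSeq (GRCm38.p6). No 2 libraries held identical counts. Coverage per gene is given as counts or CPM, and limits from 0 counts cover counting error only. One gene of the related lists is not reported here by name.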

Additional observations from a re-analysis of the deposited data

Results flagged for a closer look

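In 4 of 35 sets of 4 libraries, one library stood apart from the other 3 of its group by Dixon's gap test, and chance flags about 1 in 20 such sets. For Wt1 in kidney, PT-2385 replicate 3 was the highest at 33.1 CPM, above 31.0 to 31.2 CPM in the other PT-2385 libraries. For Plce1 in kidney, PT-2385 replicate 4 was the lowest at 18.4 CPM, below 22.9 to 23.6 CPM in the others. Ptpro in ovary was lowest in PT-2385 replicate 4 at 3.51 CPM, below 4.16 to 4.20 CPM in the others. Tcf21 in ovary was lowest in PT-2385 replicate 3 at 30.04 CPM, below 38.5 to 38.8 CPM in the others.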

How the results depend on the processing

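In kidney all 9 fitted differences stayed positive under the 16 alternatives, with Wt1 between 0.22 and 0.31 and Synpo between 0.21 and 0.33 on the log2 scale. The number of podocyte genes called was 1 with upper-quartile scaling, 4 with no filter and 0 in one fit over all 16 libraries. It ranged from 0 to 2 when one library was left out and was 0 without PT-2385 replicate 3 or 4. All kidney calls numbered 1761 with no filter, 286 in the fit over all 16 libraries and 240 to 1370 with one library left out. In ovary the calls over all genes were 322 with DESeq2, 4 with limma-voom, 330 with no filter, 325 in the fit over all 16 libraries and 0 to 1090 with one library left out, and 0 to 1 podocyte genes were called then. For the difference between organs they were 20 with median-ratio scaling, 304 with DESeq2, 12 with limma-voom, 167 with no filter and 0 to 813 with one library left out, where 0 podocyte genes were called. With the replicate number as a block, 1274 kidney genes, 395 ovary genes and 263 genes in the difference between organs were called. The block called 4 podocyte genes in kidney, adding Nphs1 (adjusted p = 0.0472, edgeR) and Podxl (0.0327, edgeR). Deviations of same-numbered libraries had correlations between -0.064 and 0.0522 in kidney and between -0.172 and 0.236 in ovary. Numbers 2 and 3 were positive in both organs and numbers 1 and 4 negative, so the numbers were not shown to mark pairs and the block's calls are not used. Ovary Synpo changed sign with limma-voom (0.0021) and with the block (0.0033). Leaving out one library gave ovary values of -0.017 to 0.098 for Wt1, -0.069 to 0.073 for Synpo, -0.12 to 0.0061 for Plce1, -0.023 to 0.17 for Tcf21 and -0.043 to 0.17 for Robo2. The same step gave differences between organs of -0.088 to 0.12 for Tcf21 and -0.15 to 0.11 for Robo2, and the ovary difference of Nphs1 ran from -0.0864 to -0.0217 CPM. The cause of these changes was not tested.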
